A study of Mus musculus with 59 samples.

Results

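A set of 32 genes of oligodendrocytes and myelin was followed through cortex and hippocampus of male mice. By their labels, the mice carried 1 or 2 copies of the mitochondrial genes Slc25a1 and Mrpl40. Each of the 32 symbols stood on 1 row of the deposited table of raw counts, which holds 57180 gene rows, 44147 of them above 0 in any library. All 32 passed the filter on low counts in every fit. Of these genes, 28 belong to myelinating cells or to the whole lineage and are called the mature genes here, and 4 (Pdgfra, Cspg4, Gpr17 and Enpp6) mark precursors and newly formed oligodendrocytes.

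The product of Slc25a1 carries citrate across the inner mitochondrial membrane, and that of Mrpl40 is part of the mitochondrial ribosome. Both lie in the region that matches human 22q11.2. The labels name Mrpl40 +/+, Slc25a1 +/+ (wild type), Mrpl40 +/+, Slc25a1 -/+ (Slc25a1 het), Mrpl40 -/+, Slc25a1 +/+ (Mrpl40 het) and Mrpl40 -/+, Slc25a1 -/+ (double het), with no age and no construction of either allele. In that order cortex had 9, 7, 7 and 7 libraries and hippocampus 8, 7, 7 and 7, 1 library per animal and tissue, from 30 animals of which 29 gave both tissues.

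Oligodendrocytes wrap axons of the brain and spinal cord in myelin, a stack of lipid-rich membrane held together by proteins such as those encoded by Mbp and Mobp. They arise from dividing precursors that carry the receptor encoded by Pdgfra and the proteoglycan encoded by Cspg4, pass through a short stage marked by Gpr17 and Enpp6, and then switch on the myelin genes under the transcription factors Sox10 and Myrf. In the forebrain, white matter holds far more of these cells than grey matter does. In bulk tissue, fewer cells of a type and less RNA per cell cannot be told apart.

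Myrf binds a short sequence that starts with CTGG, and the window before the start of 3 myelin genes shows it. The stretches below run 5′ to 3′ along each gene's strand from 150 to 41 bases before the RefSeq start (GRCm38.p6), and capitals mark CTGGCAC, or GTACCAG, the reverse complement of CTGGTAC. They are shown as 3 of the 4 genes with such a match. Most mature genes varied together across libraries, as described further on, whether or not they have the match. Mog, encoding a protein of the outermost myelin surface, is read from chr17:37023439-37023548 on the minus strand. Mag, encoding an adhesion protein of the membrane next to the axon, is read from chr7:30914904-30915013 on the minus strand. Cnp, encoding an enzyme of the cytoplasmic channels in myelin, is read from chr11:100574789-100574898 on the plus strand.
Mog: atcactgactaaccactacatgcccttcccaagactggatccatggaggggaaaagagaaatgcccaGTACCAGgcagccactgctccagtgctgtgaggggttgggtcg
Mag: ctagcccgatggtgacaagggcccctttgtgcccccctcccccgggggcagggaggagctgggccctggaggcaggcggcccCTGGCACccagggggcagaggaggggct
Cnp: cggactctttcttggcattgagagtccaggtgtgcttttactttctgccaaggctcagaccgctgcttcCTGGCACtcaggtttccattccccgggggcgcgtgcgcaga

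The first base of the match lies 83 bases before the start of Mog, 68 before that of Mag and 81 before that of Cnp. The table of RefSeq promoters held 22 of the 32 genes. Within 250 bases before the start, CTGGCAC or CTGGTAC was found on either strand in 4 of these 22 genes (Cnp, Hapln2, Mag and Mog, 18.2%) and in 1947 of 32851 promoters of the whole table (5.93%). A gene can have several promoters in that table, 3 in the case of Mag, of which the one with the match is shown. The shares of the 22 count genes and those of the whole table count promoters. They are therefore not directly comparable, for this sequence or the next. The letters ACAAAG, the core of the sequence bound by Sox proteins, were found on either strand in 5 of the 22 genes (Cnp, Mag, Mobp, Opalin and Tspan2, 22.7%) and in 16.5% of all promoters.

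Library totals ranged from 21443017 to 32120906 counts. Levels are given as CPM, each count relative to its library's total after scaling over all 59 libraries. The targeted gene Slc25a1 took a low level (10.8 to 13.1 CPM in cortex) or a high level (21.0 to 26.3 CPM in cortex), and in 6 of the 30 animals the level went against the label in both tissues: 2 labelled wild type were low, and 2 labelled Slc25a1 het and 2 labelled double het were high. Mrpl40 did not separate the groups: its median in cortex was 17.2 CPM in wild type, 17.8 with Slc25a1 het, 17.5 with Mrpl40 het and 17.6 with double het as the label. The genotypes below are therefore the labelled ones. For each comparison between genotypes the median of the 32 genes is also given without the 6 animals. Other results without them are given only in part. In hippocampus, 3 libraries held high levels of markers of neighbouring tissue: cerebellar genes summed to 808.0 CPM in Slc25a1 het replicate 3 (median of the hippocampus libraries 253.5), and choroid plexus genes to 96.1 CPM in double het replicate 6 and 76.3 CPM in Mrpl40 het replicate 5 (median 32.4). Pmp2, a marker of Schwann cells, which make the myelin of peripheral nerves, was at 0 in 30 of 30 cortex and 26 of 29 hippocampus libraries, while Prx, another of their markers, had a median of 2.11 CPM in cortex and 3.9 in hippocampus.

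The 2 markers of the lineage, Mbp and Mog, were present in every library, so the tissue held the cells the gene list is named for. Mbp, which encodes the protein that compacts the inner faces of the myelin membrane, ranged in cortex from 673.5 to 1699.7 CPM with a median of 970.8, and in hippocampus from 801.4 to 1819.7 with a median of 1131.1. Mog ranged in cortex from 18.3 to 41.4 CPM with a median of 24.4, and in hippocampus from 20.0 to 48.4 with a median of 28.7. The 2 tissues overlapped widely in both genes.

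On the scale of mean CPM per kilobase of exon, Mbp stood first in both tissues, at 120.1 in cortex and 140.3 in hippocampus. Mobp, encoding a basic protein that also sits in compact myelin, was second at 53.1 and 65.9. Car2, encoding a carbonic anhydrase, came next at 52.2 and 57.8, within the spread between libraries of Mobp in cortex. Cnp, Trf, which encodes the iron carrier transferrin, and Qdpr, which encodes an enzyme that regenerates tetrahydrobiopterin, followed between 38.9 and 50.2. The 4 precursor and newly formed genes lay lower: Gpr17 at 7.62 in cortex and 9.16 in hippocampus, Pdgfra at 4.11 and 4.49, Cspg4 at 2.08 and 2.24, and Enpp6, a choline phosphodiesterase gene, last of all 32 at 0.553 and 0.782. Lengths come from GENCODE vM21. Of the exon bases of Trf, 63.5% are shared with Gm20425 on the same strand, and 54.2% of those of Pllp with an antisense gene, so the counts of both genes are uncertain.

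**Figure D1:**
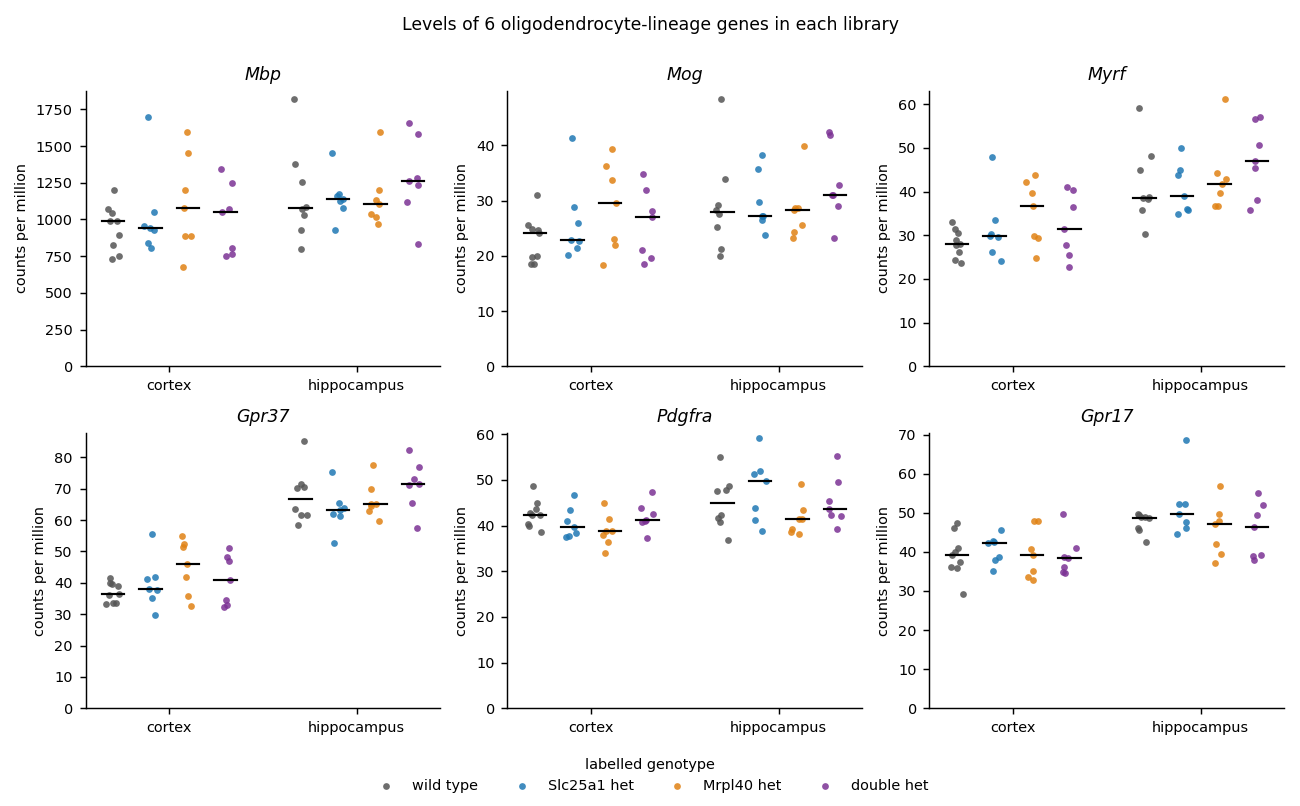
Level in CPM of Mbp, Mog, Myrf, Gpr37, Pdgfra and Gpr17 in each of the 59 libraries, by tissue and labelled genotype, with bars at the group medians. In each gene and tissue the genotypes overlap, and Gpr37 is the gene in which hippocampus stands above cortex in nearly every library (28 of 29 above the highest cortex library).

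Within a genotype and tissue the mature genes rose and fell together from animal to animal. Taking each library's log2 CPM minus the mean of its genotype, each mature gene was set against the mean of the other 27, over 30 cortex or 29 hippocampus libraries that share their library with the gene compared. In cortex the correlation had a median of 0.95 over the 28 genes (0.42 to 0.99), and 19 of 28 reached 0.9. In hippocampus the median was 0.93 (0.7 to 0.98), and 20 of 28 reached 0.9. These values describe one set of libraries and carry no test. Over all genes tested the median correlation with the same mean was -0.0 in cortex and -0.02 in hippocampus.

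The highest correlations in cortex were those of Mbp and Mobp, both 0.99. Of the promoters shown above, Mag followed the others at 0.98 in cortex and 0.98 in hippocampus, Cnp at 0.98 and 0.96, and Mog at 0.97 and 0.94. Hapln2, the other gene with the match, was at 0.89 and 0.93, and Mobp, with no match in its window, at 0.99 and 0.97. Myrf, the transcription factor that switches on myelin genes, was at 0.97 in cortex and 0.9 in hippocampus, and Sox10, which acts through the whole lineage, at 0.9 and 0.86. The lineage factors were looser in cortex: Olig1 was at 0.77 and Olig2 at 0.42, which fell to 0.27 without the 2 libraries farthest from the median. In hippocampus Olig2 was at 0.74.

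The mature genes also varied more than most genes. Their median SD between libraries of a genotype was 0.299 on the log2 scale in cortex and 0.286 in hippocampus, against 0.152 and 0.174 over all genes tested. Mobp had the largest SD in cortex, 0.432, higher than 88.4% of genes. Sirt2, which encodes a tubulin deacetylase, was the quietest at 0.068 in cortex and 0.072 in hippocampus, in the lowest 10.1% and 7.26% of genes, and still followed the others at 0.73 and 0.81. Car2 was likewise quiet in cortex, with an SD of 0.099. Neurons and other cells also make Sirt2 and Car2 transcripts.

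The precursor genes went with the mature ones only weakly in cortex. The correlation with the mature mean was 0.04 for Pdgfra, 0.11 for Cspg4 and 0.3 for Gpr17 in cortex, and 0.55, 0.55 and 0.39 in hippocampus. Enpp6, which marks newly formed cells, went with the mature genes in both tissues, at 0.78 and 0.83. The SD of Pdgfra was 0.112 in cortex, below the median of all genes, while that of Enpp6 was 0.399, at counts of 61 to 190 per library. Whether the 2 tissues differ in these correlations was not tested.

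**Figure D2:**
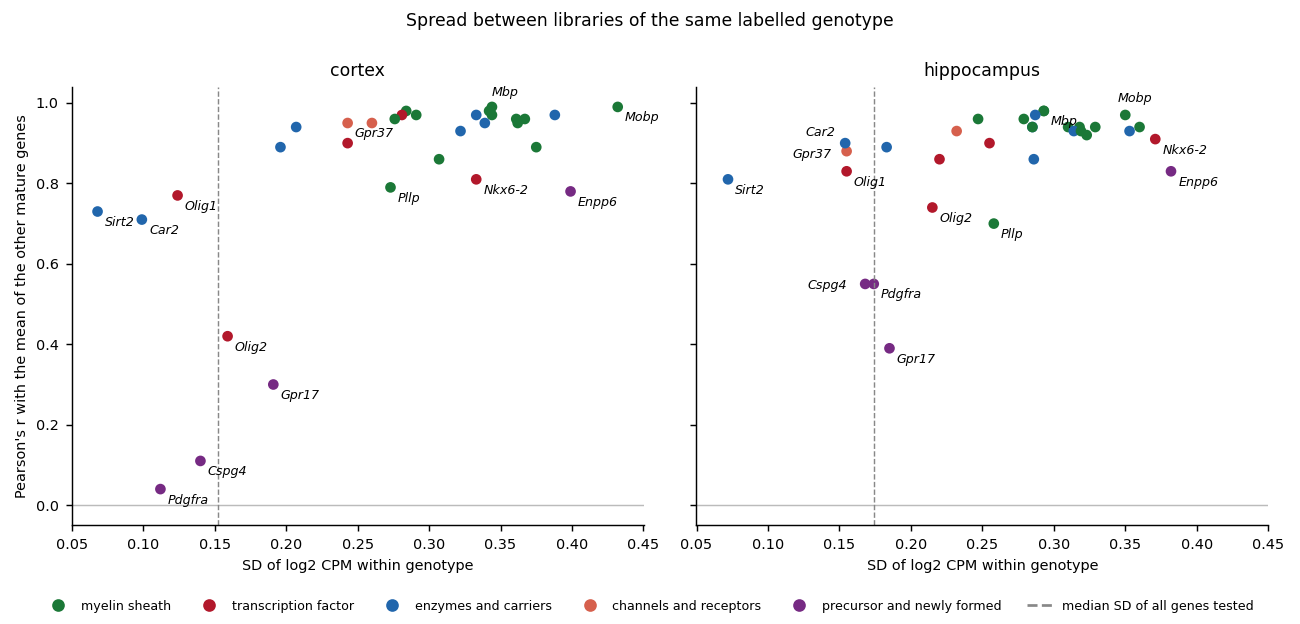
Spread of the 32 genes between libraries of the same genotype (SD of log2 CPM, x axis) against the correlation with the mean of the other mature genes (y axis), in cortex (30 libraries) and hippocampus (29 libraries), coloured by role, with a dashed line at the median SD of all genes tested (0.152 and 0.174). Most mature genes sit at the upper right, Sirt2 is far to the left, and Pdgfra and Cspg4 are low in cortex and midway up in hippocampus.

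A few libraries set the extremes. In cortex 18 of the 28 mature genes were highest in Slc25a1 het replicate 4, an animal with a Slc25a1 level against its label, and 6 in Mrpl40 het replicate 2, while 12 were lowest in Mrpl40 het replicate 1. In hippocampus 17 were highest in wild type replicate 8 and 17 lowest in wild type replicate 2. The mean log2 CPM of the mature genes was 5.98 in the highest and 5.01 in the lowest cortex library, and 6.19 and 5.23 in hippocampus.

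Markers of some other cells moved with or against the mature mean, and those of others did so only weakly. In cortex the correlation was -0.11 for astrocyte, 0.16 for microglia, -0.19 for endothelial and -0.12 for pericyte markers. In cortex the summed level of 7 cerebellar markers, which also mark some forebrain neurons, correlated with the mature mean at -0.83 (rho -0.8, and -0.75 without the 2 farthest libraries). It was 133.0 CPM in Slc25a1 het replicate 4 and 128.3 in Mrpl40 het replicate 2, the lowest of all, against 210.1 in Mrpl40 het replicate 1 and a cortex range of 128.3 to 238.3; of its 7 genes Gabra6 was at 0 in at least 1 library. The 5 markers of excitatory neurons, summing to between 5735.8 and 7044.5 CPM, correlated at -0.74 (rho -0.68, -0.62 without the 2 farthest). The value was -0.6 for 5 fibroblast markers (rho -0.57, -0.5) and -0.57 for 7 thalamus markers (rho -0.49, -0.52). The thalamus markers include Tcf7l2, counted below among the other lineage genes, so their sum does not stand for thalamic tissue alone. Its median was 185.3 CPM in cortex and 127.0 in hippocampus. In hippocampus the highest values were those of 6 inhibitory neuron markers, at 0.59 (rho 0.49, 0.36), and 5 pericyte markers, at 0.57 (rho 0.58, 0.57), and the cerebellar markers were lowest, at -0.44 (rho -0.52, -0.56). Hippocampus wild type replicate 8, with the highest mature mean, had the lowest sum of excitatory markers (5523.9 CPM) and the highest of inhibitory markers (756.1 CPM), but over all hippocampus libraries the excitatory sum correlated at -0.22 (rho 0.02, and 0.21 without the 2 farthest). The part of these cells in the spread of the myelin genes was not tested.

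Likeness to the pattern of the mature genes was ranked over 19431 genes tested in both tissues and outside the list, by the lower of the correlations in the 2 tissues. Among the 10 most like it were Prr18 (0.97 in cortex and 0.97 in hippocampus), Gatm, an enzyme gene of creatine synthesis (0.95 and 0.95), Tmem88b (0.95 and 0.98), Phldb1 (0.95 and 0.94), Plekhb1 (0.95 and 0.94), Adamts4 (0.96 and 0.94), Sox2ot (0.93 and 0.93), Litaf (0.92 and 0.93) and Galnt6 (0.92 and 0.93). The 10 genes most like the mean of Pdgfra and Cspg4 among 19461 were Ptprz1 (0.75 in cortex and 0.79 in hippocampus), Myo6 (0.71 and 0.84), Pon2 (0.68 and 0.67), Myo10 (0.67 and 0.77), Tlr3 (0.65 and 0.69), Hpgds (0.66 and 0.65), Asrgl1 (0.65 and 0.71), Fermt2 (0.65 and 0.76), Daam2 (0.64 and 0.71) and Dock1 (0.64 and 0.75).

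Hippocampus was compared with cortex in the 29 animals that gave both tissues. All 32 genes had a fitted log2 fold change above 0, and 22 were higher in hippocampus at an adjusted p under 0.05 (edgeR), none lower, where 39.8% of the 21354 genes tested were called higher and 37.7% lower. The median of the 32 was 0.21, against 0.01 over all genes, of which 51.4% were above 0. The mature genes rise and fall together, so these counts do not stand for as many separate results. By role, 8 of 13 myelin sheath genes, 3 of 5 transcription factors, 5 of 8 enzymes and carriers, both channel and receptor genes and all 4 precursor and newly formed genes passed. The differences were small: only Gpr37, Enpp6 and Myrf, 3 genes, exceeded a fold of 1.2 in the test of that size. DESeq2 called 24 of the 32. The 22 became 25 without the 6 animals and 19 without the 3 libraries with markers of neighbouring tissue, and all 32 stayed above 0 in both.

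Gpr37, which encodes a receptor of maturing oligodendrocytes, stood apart. It lies at chr6:25665878-25690729 on the minus strand (GRCm38). In cortex it ranged from 29.7 to 55.5 CPM with a median of 39.3, and in hippocampus from 52.8 to 85.1 with a median of 65.2. Hippocampus was higher in 29 of 29 animals, and 28 of 29 hippocampus libraries lay above the highest cortex library. The log2 fold change was 0.73 ± 0.056 (SE, 1.66-fold, adjusted p = 2.83e-12, edgeR). The gap junction gene Gjc3, the other gene of this group, rose by 0.28 ± 0.074 (adjusted p = 0.00149).

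Myrf led the transcription factors. It ranged in cortex from 22.8 to 48.0 CPM (median 29.8) and in hippocampus from 30.2 to 61.2 (median 41.7), so the tissues overlapped, with 7 hippocampus libraries above all of cortex and 24 of 29 animals higher in hippocampus. Its log2 fold change was 0.44 ± 0.082 (1.36-fold, adjusted p = 2.11e-05). Olig1 rose by 0.24 ± 0.041 (adjusted p = 5.36e-06) and Sox10 by 0.19 ± 0.066 (adjusted p = 0.00937). Olig2, the neighbour of Olig1 on chromosome 16, had 0.08 ± 0.044 (adjusted p = 0.0855) and Nkx6-2, a homeobox factor of late maturation, 0.08 ± 0.107 (adjusted p = 0.509). Neither passed, and the difference between Olig1 and Olig2 was not tested.

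Of the myelin sheath genes, Mobp rose most, by 0.32 ± 0.118 (1.25-fold, adjusted p = 0.0167). Its range was 208.8 to 619.8 CPM in cortex (median 342.4) and 274.3 to 720.6 in hippocampus (median 423.9). Cldn11, which encodes the claudin of the seams between myelin layers, rose by 0.27 ± 0.092 (adjusted p = 0.0102) and Bcas1, a gene of early myelinating cells, by 0.25 ± 0.083 (adjusted p = 0.00751). The most abundant gene, Mbp, was 1.17-fold higher (log2 0.22 ± 0.095, adjusted p = 0.0346, 21 of 29 animals), and Mog 1.16-fold (0.21 ± 0.093, adjusted p = 0.0431, 20 of 29 animals). These 2 calls were close to the threshold: they were lost without the 3 libraries with markers of neighbouring tissue (log2 0.201 and 0.187), and Mbp lost its call in 9 and Mog in 16 of the 29 fits that each left out 1 animal. Hapln2 was likewise lost without the 3 libraries (log2 0.208) and in 5 of the 29 fits. The sheath genes that did not pass were Mag at 0.13 (adjusted p = 0.194), Mal, a raft protein gene, at 0.20 (0.0618), Ermn, which encodes an actin-binding protein, at 0.23 (0.0554), Opalin at 0.16 (0.088) and Tspan2, a tetraspanin gene, at 0.16 (0.0792).

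Trf rose most among enzymes and carriers, by 0.36 ± 0.091 (1.29-fold, adjusted p = 8e-04, 21 of 29 animals). It ranged from 85.5 to 196.0 CPM in cortex (median 122.2) and from 117.8 to 242.4 in hippocampus (median 157.4). Choroid plexus, whose epithelium also makes transferrin, moved with the tissue: its 7 markers summed to between 3.21 and 14.6 CPM in cortex and between 19.8 and 96.1 in hippocampus, though Folr1 and Otx2 were at 0 in some libraries of both. Every hippocampus library thus held more of these transcripts than any cortex library, and the part of choroid plexus in the difference of Trf was not tested. Fa2h, which makes the hydroxylated fatty acids of myelin lipids, rose by 0.25 ± 0.104 (adjusted p = 0.0308, lost in 3 of 29 fits without 1 animal), and Qdpr by 0.17 ± 0.056 (adjusted p = 0.00817). Ugt8a, the galactosylceramide synthase gene (0.17, adjusted p = 0.109), Aspa, which breaks down N-acetylaspartate (0.07, 0.504), and Ndrg1 (0.04, 0.604) did not pass, and Aspa was higher in hippocampus in 13 of 29 animals, the fewest of the 32.

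All 4 genes of precursors and newly formed cells were called, though Cspg4 lost its call in 3 of the 29 fits without 1 animal. Enpp6 ranged from 2.16 to 6.42 CPM in cortex (median 3.18) and from 3.36 to 8.63 in hippocampus (median 4.88), a log2 fold change of 0.49 ± 0.111 (1.40-fold, adjusted p = 0.000243). Gpr17, an orphan receptor gene of committed precursors, ranged from 29.2 to 49.8 CPM in cortex (median 38.9) and from 37.1 to 68.5 in hippocampus (median 47.8), and 26 of 29 animals were higher in hippocampus (0.25 ± 0.033, adjusted p = 4.24e-08). Pdgfra (0.13 ± 0.038, adjusted p = 0.00251) and Cspg4 (0.10 ± 0.043, adjusted p = 0.0288) rose least.

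**Figure D3:**
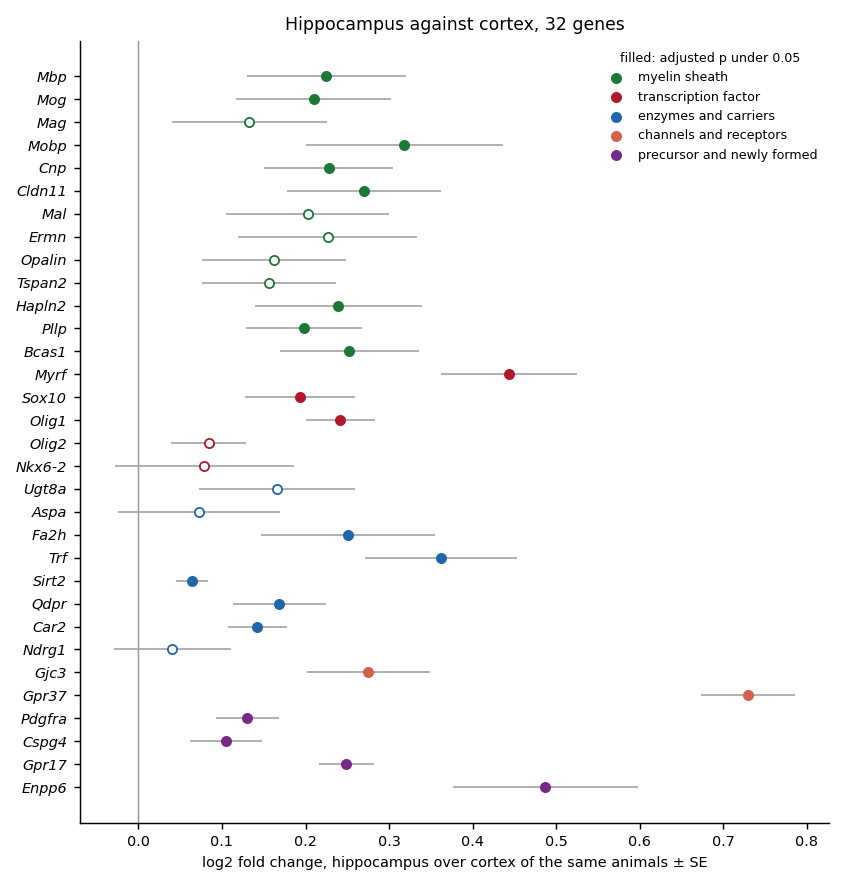
Log2 fold change of hippocampus over cortex of the same animals, with its standard error, for the 32 genes by role; filled points have an adjusted p under 0.05 (edgeR, 29 animals). All points lie above 0, 22 are filled, and Gpr37 at 0.73 lies farthest to the right. The mature genes move together, so the points are not separate results.

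Outside the list, 42 other genes of the lineage were measured, and they did not all go one way: 19 were higher and 11 lower in hippocampus at the same threshold, with a median of 0.15, beside 39.8% of all genes higher and 37.7% lower. The counts are near those shares and show nothing particular to these genes. Among the higher were the myelin and lipid genes Anln (0.70), Cers2 (0.37), Plekhb1 (0.31), Prr5l (0.22), Ppp1r14a (0.20) and Gsn (0.11), and the regulators Zfp536 (0.70), Tcf7l2 (0.63), Zfp488 (0.35), Fyn (0.34) and Nkx2-2 (0.26). Genes of precursors or their matrix that were higher were Neu4 (0.77), Matn4 (0.63), Tnr (0.54), Vcan (0.49), C1ql1 (0.46), Ptprz1 (0.44) and Itpr2 (0.43). Lower were Cntn2 (-0.66), Sox6 (-0.61), Cspg5 (-0.45), Gal3st1 (-0.44), Bmp4 (-0.30), Tppp (-0.26), Tmem125 (-0.25), Gpr62 (-0.24), Lhfpl3 (-0.23), Carns1 (-0.15) and Nfasc (-0.14). Several of these, among them Cntn2, Sox6, Tnr, Tcf7l2, Cspg5 and Nfasc, are also made by neurons. The summed excitatory neuron markers had a median of 6511.6 CPM in cortex and 8393.6 in hippocampus, and the part of neurons in these differences was not tested.

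Genotype was tested within each tissue over all 4 labelled groups, and the comparisons with wild type share its libraries. None of the 32 genes was called in any of the 12 comparisons within a tissue by edgeR, nor by DESeq2. The mature genes rise and fall together, so a count of members above or below 0 does not stand for as many separate results. Over all genes 46.6% to 51.9% were above 0 in these comparisons, and 49.6% to 52.6% in the later tests of genotype effects between tissues. In simulated data with known changes, edgeR recovered 53.7% of 1.2-fold and 74.6% of 1.5-fold changes for double het against wild type in cortex. In hippocampus the shares were 28.4% and 70.1%. The changed genes were drawn at random from all genes past the filter. The mature genes varied more than most genes, so these shares do not give the recovery among the 32.

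In cortex the libraries labelled Mrpl40 het lay higher than wild type in most mature genes, without passing the test. None of the 32 was called, where 0.0294% of 20394 genes were. The fitted change was above 0 in 29 of 32 genes, where 49.0% of all genes were above 0. The median of the 32 was 0.23 on the log2 scale, and that of all genes was -0.002. At an unadjusted p under 0.05 there were 4 members by edgeR (and 6.94% of all genes) and 5 by DESeq2. The libraries of Mrpl40 het carried lower sums of the cerebellar markers (median 163.6 CPM, against 191.4 in wild type), and their part in this was not tested.

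The values of Mbp in cortex were 730.9, 988.5 and 1199.3 CPM (lowest, median, highest) in libraries labelled wild type, 805.3, 941.5 and 1699.7 in Slc25a1 het, 673.5, 1080.0 and 1593.7 in Mrpl40 het and 753.6, 1051.8 and 1342.3 in double het. The libraries labelled Mrpl40 het held both the lowest and nearly the highest value of the tissue, and all groups overlapped. For Mbp the log2 fold change of Mrpl40 het over wild type was 0.23 ± 0.174 (95% interval -0.124 to 0.591, adjusted p = 0.811). Mog was 18.5, 24.2 and 31.1 CPM in wild type, 20.1, 22.9 and 41.4 in Slc25a1 het, 18.3, 29.5 and 39.3 in Mrpl40 het and 18.5, 27.1 and 34.9 in double het. Its change in Mrpl40 het was 0.33 ± 0.173 (-0.025 to 0.684, adjusted p = 0.732).

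The 5 members with the smallest p in cortex of Mrpl40 het were Tspan2, Pdgfra, Gpr37, Myrf and Aspa. Tspan2 was 48.8, 58.8 and 71.0 CPM in wild type and 49.1, 76.0 and 89.2 in Mrpl40 het, a log2 change of 0.34 ± 0.138 (unadjusted p = 0.0195, adjusted p = 0.657). Myrf was 23.6, 27.9 and 33.1 CPM in wild type and 24.8, 36.6 and 43.9 in Mrpl40 het (0.32 ± 0.141, adjusted p = 0.688), and Gpr37 33.3, 36.4 and 41.5 against 32.7, 46.0 and 54.8 (0.28 ± 0.121, adjusted p = 0.679). Aspa had 0.31 ± 0.158 (adjusted p = 0.731). The precursor gene Pdgfra had the opposite sign: it was 38.5, 42.4 and 48.6 CPM in wild type and 34.1, 38.8 and 45.0 in Mrpl40 het, and its change was -0.13 ± 0.053 (unadjusted p = 0.0196, adjusted p = 0.657). In all of these the groups overlapped. The median of the 32 was 0.153 without Mrpl40 het replicate 2 and 0.325 without replicate 1, the lowest and highest of the fits without 1 library. Without the 6 animals it was 0.275, with 6 members at an unadjusted p under 0.05 by edgeR and no call.

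Libraries labelled Slc25a1 het had 28 of 32 fitted changes above 0 in cortex, with a median of 0.12, and none was called (0.0% of all genes), with none at an unadjusted p under 0.05 by edgeR (3.17% of all genes) or DESeq2. The median was 0.074 without the 6 animals and 0.002 without replicate 4 of that group, the library with the highest mature mean, whose Slc25a1 level also goes against its label. Mbp had 0.13 ± 0.174 (-0.232 to 0.484), which became -0.039 without that library, and Mog had 0.19 ± 0.174 (-0.17 to 0.545), which became 0.038. The smallest p belonged to Enpp6 (0.30 ± 0.203), Pdgfra (-0.07 ± 0.053), Cspg4 (-0.09 ± 0.067), Nkx6-2 (0.21 ± 0.165) and Pllp, which encodes plasmolipin (0.16 ± 0.129), all at an adjusted p of 1.0.

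Libraries labelled double het had 25 of 32 changes above 0 in cortex against wild type, with a median of 0.12. None was called (0.0686% of all genes), and 1 member by edgeR (10.9% of all genes) and 0 by DESeq2 had an unadjusted p under 0.05. That gene was Car2, at 114.8, 127.9 and 144.7 CPM in wild type and 110.1, 114.8 and 133.7 in double het (-0.10 ± 0.047, adjusted p = 0.445). Sirt2 had -0.06 ± 0.035, Tspan2 0.24 ± 0.139, Ugt8a 0.25 ± 0.171 and Ndrg1 0.14 ± 0.097. Mbp had 0.09 ± 0.174 and Mog 0.17 ± 0.175 (adjusted p = 0.903 and 0.769). The median was 0.062 without the 6 animals and 0.059 without double het replicate 6.

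Set against the single heterozygotes in cortex, double het showed no call either (0.0588% of all genes were called against Slc25a1 het and 0.0049% against Mrpl40 het). Against Slc25a1 het 18 of 32 changes were above 0, with a median of 0.004, and the unadjusted p was under 0.05 for Car2 (-0.12 ± 0.05) and Sirt2 (-0.08 ± 0.037), 2 members by edgeR (9.92% of all genes) and 2 by DESeq2. Nkx6-2 (-0.18), Pdgfra (0.05) and Sox10 (-0.10) came next, Mbp had -0.04 ± 0.185 and Mog -0.02 ± 0.185, and the median was -0.012 without the 6 animals and of opposite sign in 8 of 30 fits without 1 library. Against Mrpl40 het 4 of 32 were above 0, with a median of -0.10, and the same p was reached by Sirt2 (-0.08 ± 0.037) and Car2 (-0.11 ± 0.05), again 2 by either tool (6.94% of all genes). Pdgfra (0.10), Qdpr (-0.15) and Aspa (-0.19) came next, Mbp had -0.15 ± 0.185 and Mog -0.16 ± 0.183, and the median was -0.202 without the 6 animals and -0.019 without Mrpl40 het replicate 2. The interaction, taken on the log2 scale as the effect of double het less the sum of the single effects, had 4 of 32 genes above 0 in cortex, a median of -0.24 and no call (0.0% of all genes). At an unadjusted p under 0.05 were Pdgfra (0.18 ± 0.078) and Sirt2 (-0.11 ± 0.051), 2 members by either tool (5.35% of all genes). Car2 (-0.13), Nkx6-2 (-0.39) and Myrf (-0.30) came next, with Mbp at -0.27 ± 0.254 and Mog at -0.35 ± 0.253. The median of the interaction was -0.281 without the 6 animals and -0.108 without Slc25a1 het replicate 4.

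In hippocampus the fitted changes of Mrpl40 het had the other sign, a difference between tissues that did not pass its own test. Mbp was 801.4, 1080.0 and 1819.7 CPM (lowest, median, highest) in libraries labelled wild type, 926.9, 1137.4 and 1451.3 in Slc25a1 het, 969.4, 1107.1 and 1596.8 in Mrpl40 het and 830.7, 1260.0 and 1653.8 in double het. Mog was 20.0, 27.9 and 48.4 CPM in wild type, 23.7, 27.3 and 38.2 in Slc25a1 het, 23.3, 28.3 and 39.8 in Mrpl40 het and 23.3, 31.1 and 42.5 in double het. The wild-type group spanned the whole range of the tissue, and all groups overlapped.

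In hippocampus of Mrpl40 het, 30 of 32 fitted changes were below 0, with a median of -0.06, no call (0.00496% of all genes) and no member at an unadjusted p under 0.05 by edgeR (8.19% of all genes) or DESeq2. Mbp had -0.03 ± 0.15 (-0.341 to 0.273) and Mog -0.06 ± 0.163 (-0.391 to 0.279). Cspg4 (-0.15 ± 0.085), Olig1 (-0.11 ± 0.079), Pdgfra (-0.12 ± 0.089), Nkx6-2 (-0.24 ± 0.184) and Sox10 (-0.12 ± 0.112) had the smallest p, with adjusted p from 0.642 to 0.775. The median was -0.091 without the 6 animals, 0.042 without wild type replicate 8, the library with the highest mature mean, and -0.146 without Mrpl40 het replicate 5 or without the 3 libraries with markers of neighbouring tissue.

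In hippocampus of Slc25a1 het, 16 of 32 changes were above 0, with a median of -0.002, no call (0.0% of all genes) and no member at an unadjusted p under 0.05 by either tool (7.77% of all genes). The median was 0.005 without the 6 animals, with 19 of 32 above 0, and 0.114 without wild type replicate 8. Its sign was opposite in 6 of 29 fits without 1 library. Mbp had -0.02 ± 0.15 and Mog 0.02 ± 0.163. Gpr17 was 42.5, 48.8 and 49.8 CPM in wild type and 44.5, 49.8 and 68.5 in Slc25a1 het (0.12 ± 0.094, adjusted p = 0.772). Gpr37 (-0.10), Nkx6-2 (-0.22), Qdpr (-0.10) and Pdgfra (0.09) came next.

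In hippocampus of double het, 27 of 32 changes were above 0, with a median of 0.10, no call (0.00992% of all genes) and no member at an unadjusted p under 0.05 by either tool (5.28% of all genes). Mbp had 0.12 ± 0.15 and Mog 0.17 ± 0.162. Hapln2, which encodes a link protein of the nodes of Ranvier, was 7.58, 10.5 and 18.9 CPM in wild type and 9.33, 14.2 and 18.5 in double het (0.28 ± 0.162, adjusted p = 0.989). Myrf (0.17), Sox10 (0.15), Fa2h (0.18) and Ugt8a (0.19) came next. Without the 6 animals 18 of 32 were above 0 and the median was 0.011, without double het replicate 1 it was 0.016, and without wild type replicate 8 it was 0.198.

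Against Slc25a1 het, double het in hippocampus had 27 of 32 above 0 and a median of 0.12, with no call (0.0% of all genes), and 0 members by edgeR (9.04% of all genes) and 1 by DESeq2 at an unadjusted p under 0.05. Gpr37 (0.16 ± 0.08), Gpr17 (-0.19 ± 0.097), Hapln2 (0.30), Myrf (0.21) and Olig1 (0.12) had the smallest p, with Mbp at 0.15 ± 0.155 and Mog at 0.14 ± 0.167. Here too the median was 0.017 without the 6 animals, and it was 0.045 without double het replicate 1. Against Mrpl40 het 30 of 32 were above 0, with a median of 0.16, no call (0.0% of all genes), and 1 member by edgeR (4.68% of all genes), Sox10 (0.26 ± 0.115, adjusted p = 0.958), and 2 by DESeq2 at an unadjusted p under 0.05. Gjc3 (0.24), Olig1 (0.15), Hapln2 (0.31) and Cspg4 (0.14) came next, with Mbp at 0.16 ± 0.155 and Mog at 0.22 ± 0.168. Without the 3 libraries with markers of neighbouring tissue 7 members reached that p, none was called, and the median was 0.272. It was 0.251 without Mrpl40 het replicate 5, 0.085 without double het replicate 1 and 0.13 without the 6 animals, where no member reached that p by edgeR. The interaction in hippocampus had 29 of 32 above 0, a median of 0.19, no call (0.0% of all genes) and no member at an unadjusted p under 0.05 by either tool (3.39% of all genes). Olig1 (0.23 ± 0.113), Gpr37 (0.20), Nkx6-2 (0.38), Hapln2 (0.33) and Gjc3 (0.24) had the smallest p, with Mbp at 0.18 ± 0.215 and Mog at 0.20 ± 0.234, and the median was 0.118 without the 6 animals and 0.075 without wild type replicate 8.

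**Figure D4:**
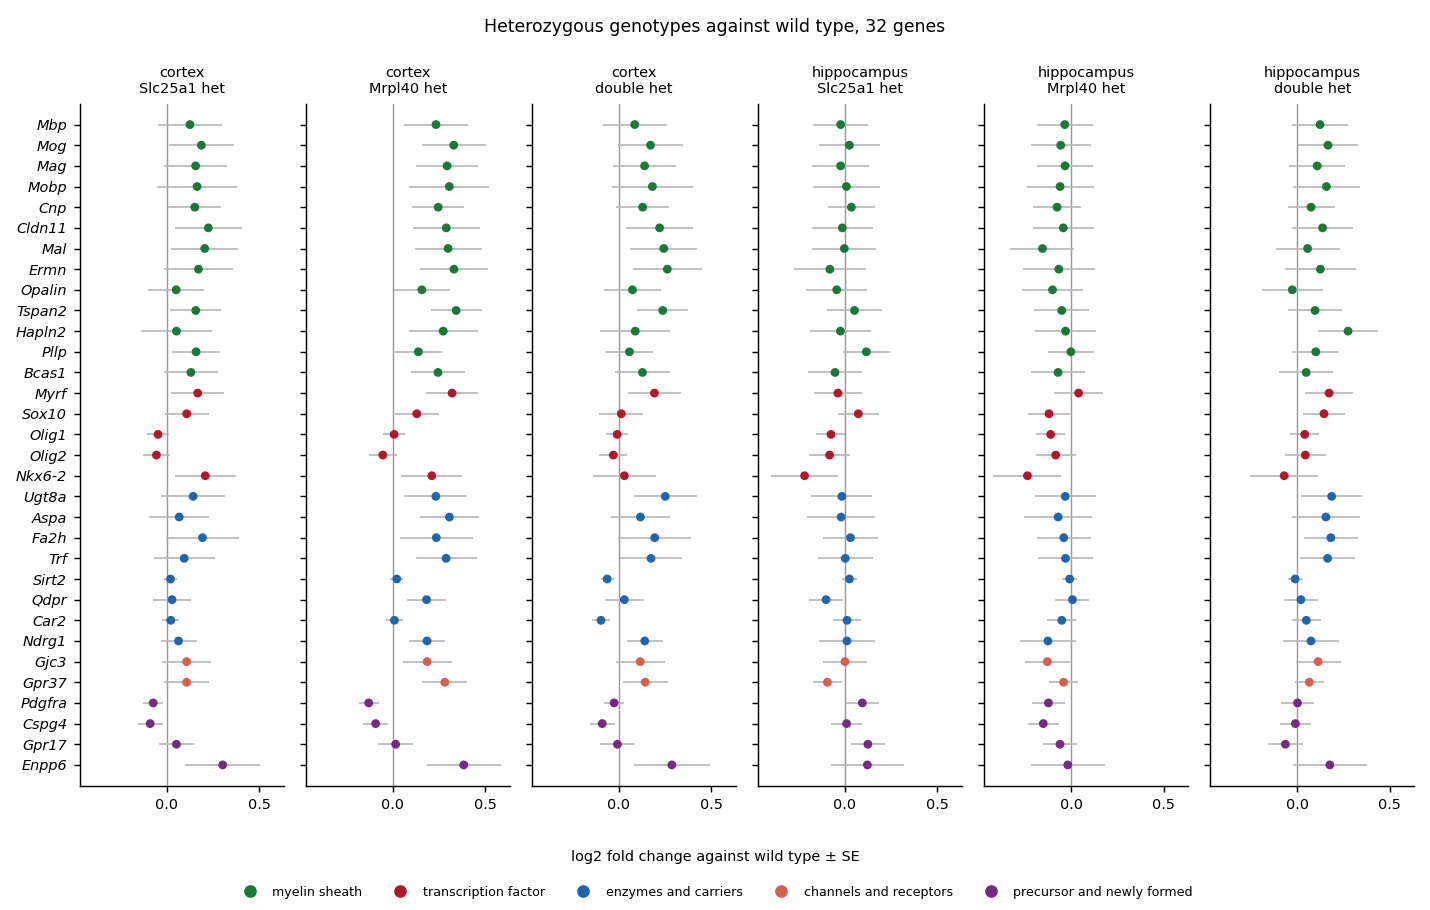
Log2 fold change with its standard error of the 32 genes in Slc25a1 het, Mrpl40 het and double het against wild type, in cortex (the 3 panels on the left) and hippocampus (the 3 on the right), coloured by role. No point passes an adjusted p of 0.05. In cortex of Mrpl40 het 29 of 32 points lie above 0, and in hippocampus of the same label 30 of 32 lie below. The genes move together, so the points of a panel are not separate results.

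Whether a genotype acted differently in the 2 tissues was tested within the 29 animals. No member was called in any of the 3 tests by edgeR or DESeq2, and no member had an unadjusted p under 0.05 by edgeR or DESeq2 (by edgeR, 6.0% of all genes had one for Slc25a1 het, 5.83% for Mrpl40 het and 5.03% for double het). For Mrpl40 het 1 of 32 differences (hippocampus minus cortex) was above 0, the median was -0.23, and 0.0% of all genes were called. Gpr37 (-0.28 ± 0.156, adjusted p = 0.853), Tspan2 (-0.32 ± 0.224), Ndrg1 (-0.28), Mal (-0.35) and Nkx6-2 (-0.38) had the smallest p, with Mbp at -0.17 ± 0.265 and Mog at -0.29 ± 0.259. Without the 3 libraries with markers of neighbouring tissue the median was -0.347, with 2 members at an unadjusted p under 0.05 and no call. It was -0.296 without the 6 animals, with 0 of 32 above 0, -0.35 without Mrpl40 het replicate 5 and -0.106 without wild type replicate 8. For Slc25a1 het 6 of 32 were above 0, with a median of -0.06 and 0.0% of all genes called, led by Pdgfra (0.15), Nkx6-2 (-0.37), Gpr37 (-0.17), Gpr17 (0.10) and Cspg4 (0.10), with Mbp at -0.07 and Mog at -0.08, and the median was -0.007 without the 6 animals, -0.091 without the 3 libraries and of opposite sign in 2 of 29 fits without 1 animal. For double het 21 of 32 were above 0, with a median of 0.03 and 0.0234% of all genes called, led by Car2 (0.15), Sirt2 (0.06), Sox10 (0.17), Hapln2 (0.24) and Cspg4 (0.09), with Mbp at 0.09 and Mog at 0.07, and the median was 0.012 without the 6 animals, 0.1 without the 3 libraries and of opposite sign in 6 of 29 fits without 1 animal.

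Of the 42 other lineage genes, none was called in any of the 12 comparisons between genotypes within a tissue by edgeR or DESeq2. By edgeR the number at an unadjusted p under 0.05 ranged from 0 in cortex of Slc25a1 het (3.17% of all genes) to 7 in cortex of Mrpl40 het (6.94% of all genes; 8 of the 42 by DESeq2), where 30 of 42 were above 0 with a median of 0.09.

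Levels of myelin transcripts in cortex and hippocampus of the same animal showed no positive relation. Over the 29 animals, the mean of the mature genes, as deviation from the genotype mean, correlated between tissues at -0.28 (rho -0.21, and -0.34 without the 2 farthest animals). Of the 32 genes 30 had a correlation below 0, and none passed over the 19463 genes compared, of which 1.17% did (permutation within genotype, Benjamini-Hochberg). The median over all genes was 0.11. The mature genes rise and fall together, so the 30 are not separate results, and the correlation of their mean was not tested. Nkx6-2 was lowest at -0.38 (rho -0.34, permutation p = 0.0421 and 0.0837, adjusted p = 0.375 for r) and -0.46 without the 2 farthest.

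Gpr17 went the other way, with Olig2 (0.12) the only other gene above 0. Its cortex and hippocampus levels correlated at 0.45 (permutation p = 0.0284, adjusted p = 0.32) with a rho of 0.47 (permutation p = 0.0233), and at 0.33 without the 2 farthest animals. Of all genes 7.15% had a correlation at least as high. The other precursor genes had -0.05 (Pdgfra), -0.23 (Cspg4) and -0.15 (Enpp6).

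**Figure D5:**
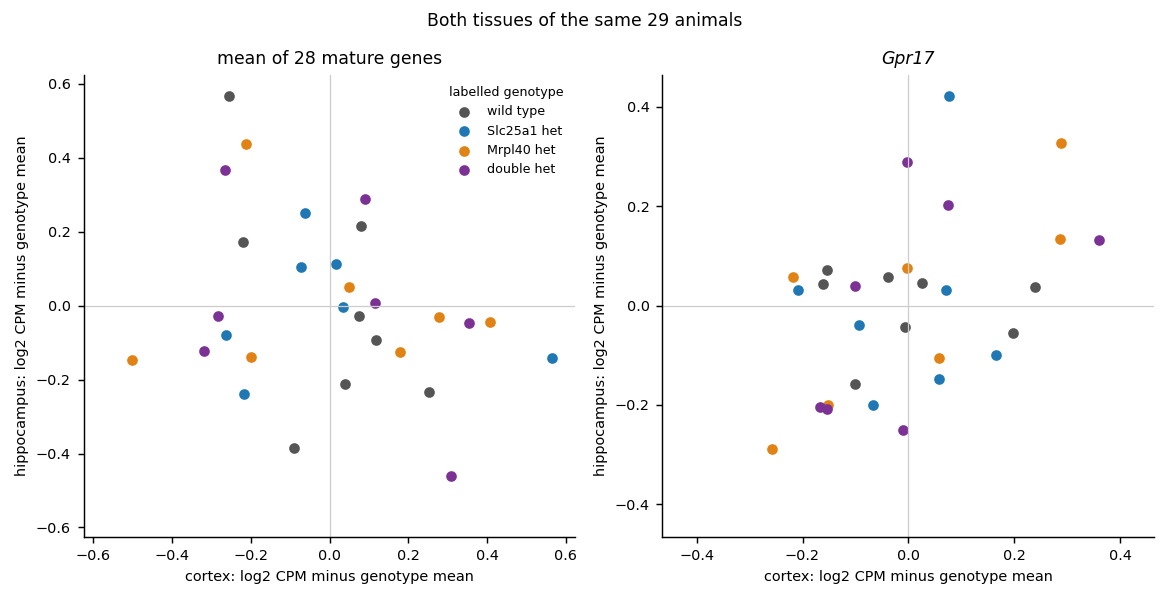
Deviation from the genotype mean in log2 CPM in cortex (x axis) and hippocampus (y axis) of the same 29 animals, for the mean of the 28 mature genes (left) and for Gpr17 (right), coloured by labelled genotype. The left panel slopes weakly down (r = -0.28) and the right panel up (r = 0.45).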

How the data were processed

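Poly(A) RNA of 59 libraries was sequenced as stranded paired-end reads. Per the submitters' processing notes, FastQC, HISAT2, featureCounts and DESeq2 were used with mm39/GRCm39; which annotation and strand setting the counting used is not stated there. The authors deposited raw counts per gene, and signal values named normalized counts, which are the raw counts over 1 factor per library (checked on the values, largest relative range 9.85e-10) and were used only for limma. Of the 57180 rows, 7074 have a blank symbol and were kept under their gene identifiers.

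Counts were fitted with edgeR 4.0.16 in R 4.3.3 (package data.table, version 1.17.8; TMM scaling, its filter on low counts, robust quasi-likelihood test, Benjamini-Hochberg adjustment over all genes tested, threshold 0.05): 20394 genes in cortex, 20162 in hippocampus, with all 4 genotypes together, and 21354 for both tissues with the animal as a block. Both tissues share an animal by its identifier in the labels, and same-animal libraries had deviations correlating across genes at a median of 0.072 (0.022 to 0.16, 29 animals), against -0.005 between different animals. CPM used TMM over all libraries, and log2 CPM a prior count of 2. Correlations between tissues used 100000 permutations within genotype. Exon lengths and overlaps came from GENCODE vM21 (GRCm38), promoters from RefSeq (GRCm38.p6), a build other than the authors', so no coordinates of theirs were used. Numbers and plots used Python 3.11.15, numpy 2.4.6, pandas 2.3.3 and matplotlib 3.10.9.

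The members and lists were chosen with earlier results of these data known. Named are Mbp and Mog in each comparison and the members past the threshold, or the 5 with the smallest p; between tissues, the 3 largest changes per role and each member that did not pass; and the 10 genes most like the mature or precursor genes. Any further gene was picked with its values in view, and some genes these rules name are not reported here. Results were recomputed with no filter, with DESeq2 size factors, with the Wald test of DESeq2 1.42.0, on the compared genotypes alone, with replicate numbers as a block or no animal block, limma 3.58.1 on log2 of the deposited normalized counts plus 1, with a fold of at least 1.2, and with each library or animal left out. Fits without the 6 animals and without the 3 hippocampus libraries were added after the data had been seen. In the simulated data, 200 genes drawn at random from those past the filter were changed. Between tissues edgeR recovered 61.2%, 88.1% and 93.9% of 1.2-fold, 1.5-fold and 2-fold changes, with 6 false calls among 20722 genes. That simulation held no animal effect and no other change between tissues. In the real data 39.8% of genes were called higher and 37.7% lower, so these figures do not describe the recovery there.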

Additional observations from a re-analysis of the deposited data

Results flagged for a closer look

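In 25 of 256 groups (1 gene in 1 tissue and labelled genotype; 9.77%, where chance gives about 1 in 20) a library lay far from the others by Dixon's test of the gap to the nearest library over the range of log2 CPM. The genes move together, so these are not 25 separate events. In hippocampus, 13 of them came from Mrpl40 het replicate 5, which was the highest of its group. Its levels, each followed by the next highest of the group, were 1596.8 CPM for Mbp (1202.0), 39.8 for Mog (28.7), 165.4 for Mal (113.8), 60.0 for Ermn (38.9), 61.2 for Myrf (44.2), 78.7 for Olig1 (63.5), 40.4 for Ugt8a (24.4), 51.3 for Gjc3 (41.3), 14.6 for Aspa (10.1), 25.5 for Fa2h (17.9), 224.6 for Trf (160.3), 103.1 for Qdpr (81.3) and 68.7 for Ndrg1 (46.8). This library also held choroid plexus markers at 76.3 CPM and the lowest sum of cerebellar markers in hippocampus, 160.5 CPM; their part was not tested.

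In cortex, 8 came from Slc25a1 het replicate 4, also the highest of its group and 1 of 6 animals with a Slc25a1 level against their label. Its levels were 1699.7 CPM for Mbp (next highest 1049.8), 51.7 for Ermn (32.8), 37.7 for Ugt8a (23.0), 56.2 for Gjc3 (36.1), 28.5 for Fa2h (16.2), 6.01 for Nkx6-2 (3.99), 133.2 for Sirt2 (122.9) and 94.7 for Qdpr (69.0). The 4 others were single genes. In hippocampus, Pllp was lowest in double het replicate 7 at 3.66 CPM (next 4.75) and Gpr17 highest in Slc25a1 het replicate 7 at 68.5 CPM (next 52.2). In cortex, Sirt2 was highest in wild type replicate 9 at 136.0 CPM (next 120.2) and lowest in double het replicate 2 at 106.6 CPM (next 112.7).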

How the results depend on the processing

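No genotype comparison gained a call among the 32 genes under any alternative, and the comparison between tissues kept all 32 changes above 0 under DESeq2, without the animal block, without the 6 animals and without the 3 hippocampus libraries. With a required fold of at least 1.2, 3 members were called between tissues in place of 22. No filter on low counts gave 17, and leaving out 1 animal gave 18 to 28. Several uncalled changes turned sign. Without the 6 animals, the tissue difference of Slc25a1 het in Mog became 0.009 and double het against Slc25a1 het in cortex for Pdgfra -0.018. The deposited normalized counts with limma gave 0.005 for Mbp in hippocampus of Slc25a1 het. With 1 library left out, Mbp ranged from -0.039 to 0.178 in cortex of Slc25a1 het, from -0.124 to 0.124 for double het against Slc25a1 het in cortex (Mog -0.103 to 0.133), from -0.128 to 0.084 in hippocampus of Mrpl40 het (Mog -0.154 to 0.087) and from -0.088 to 0.096 in hippocampus of Slc25a1 het (Mog -0.051 to 0.168). With 1 animal left out, the tissue difference ranged for Slc25a1 het from -0.155 to 0.08 in Mbp and -0.159 to 0.083 in Mog, and for double het from -0.039 to 0.245 and -0.057 to 0.228. The both-tissue fits with 1 animal left out reused the dispersion trend of the fit with all animals. The cause of these changes was not tested.

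Whether replicate numbers pair the samples across genotypes was not tested. Same-numbered libraries of different genotypes correlated at a median of 0.022 in cortex and 0.017 in hippocampus, against -0.005 and 0.002 for different numbers. In cortex 6 of 30 and in hippocampus 4 of 29 libraries matched their own number best. With the replicate number as a block, no member was called. Only wild type had replicates 8 and 9, so under this block those libraries add nothing to the genotype comparisons. In hippocampus the block turned the direction of the set in Mrpl40 het, with 22 of 32 genes above 0 and a median of 0.02 (Mbp 0.064, Mog 0.083). With no such block, leaving out wild type replicate 8 alone gave a median of 0.042. In Slc25a1 het the block gave 24 of 32 above 0 and a median of 0.052 (Mbp 0.054). For the interaction it gave 18 of 32 and 0.015 (Mog -0.041). The medians of double het were 0.04 against Slc25a1 het and 0.065 against Mrpl40 het there, and -0.004 against Slc25a1 het in cortex. Without the animal block 25 members were called between tissues.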
